A study of Mus musculus with 8 samples.

Results

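The 51 listed genes of DNA replication, mitosis and the Myc family were followed on 8 arrays of mouse sacral neural crest cultures. The members were the probe sets whose only gene symbol was a listed gene, with the brightest probe set standing for a gene. Of the 51 listed genes, 47 were measured among the 6855 genes tested, and Mcm4, Cdc45, Rfc4 and Ccnb1 were not analysed here. The 47 comprised 14 of 17 listed S-phase genes, 29 of 30 mitotic genes, and Cdk2, Cdk4, Myc and Mycn, which were assigned to neither class. They lay on chromosomes 1 (11 genes), 10 (6), 11 (10), 12 (3), 13 (5), 14 (7) and 15 (5).

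One group of 4 arrays came from homozygous Sox10 Dom mutants (Dom/Dom), which carry a frameshift in the gene of a neural crest transcription factor, and the other 4 arrays came from wild type. Both groups came from embryos at embryonic day 9.5, and no label gave a strain. Neural tube lying caudal to somite 24 was grown in DMEM/F12 medium with 10% serum, the explant was lifted off after 24 hours, and RNA was taken from the cells that had migrated out. No label stated that replicates 1 to 4 of a genotype were separate embryos or litters, so p-values measured the spread among the samples deposited, and this may be technical. In such bulk samples, fewer cycling cells and less cell cycle RNA per cell cannot be told apart.

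A cell that divides first licenses its replication origins by loading the Mcm helicase, then copies its DNA in S phase, and later builds kinetochores and a spindle under the control of Cdk1. Most of the genes that do this are switched on in waves: those for DNA synthesis as cells enter S phase, largely through E2F factors, and those for mitosis later, through the MuvB complex, which binds the CHR element, with NF-Y bound at nearby CCAAT boxes. Neural crest cells proliferate while they migrate, and Myc and Mycn are transcription factors that promote growth and division.

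The values were log2 levels made with RMA, and array medians over the genes tested lay between 9.18 and 9.33. Any 2 arrays correlated at 0.985 to 0.998 over these genes. Sox10 was lower in Dom/Dom by a log2 difference of -1.20 (limma adjusted p = 0.0168). Of 14 listed neural crest markers, 9 were measured, and their summed level was 14.51 to 14.65 log2 units in Dom/Dom and 14.92 to 15.28 in wild type. Of these 9, which include Sox10 itself, 6 had a difference below 0, while Pax3, Sox9 and Twist1 differed by 0.05, 0.09 and 0.10. The limma test was passed by 2, Sox10 and the neuregulin receptor Erbb3 (adjusted p = 0.0214), against 0.481% of all genes. With the replicate number as a block 3 passed (1.5% of all genes), the third being the transcription factor Tfap2a (limma adjusted p = 0.0418). The deposited values carried no detection calls, so absence of a transcript could not be judged.

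No difference between genotypes was detected in the measured cell cycle genes. None of the 47 members passed the limma test (0 of 47, adjusted p under 0.05), whereas 33 of all 6855 genes did (0.481%). With the replicate number as a block, 0 of 47 members and 103 of all genes (1.5%) passed. At an unadjusted p under 0.05, 1 member was counted, against 6.11% of all genes, and with the block 9 members (19.1%) against 13.9%. In 0 of 47 members did the 4 Dom/Dom arrays lie wholly apart from the 4 wild-type arrays, which was so for 3.78% of all genes. The lowest adjusted p of a member was 0.652, for Diaph3, and that of the other 46 rounded to 1.00 (limma).

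The measurements bounded the differences closely. The 95% interval of the difference lay within 2-fold for 47 of 47 members (98.7% of all genes) and within 1.5-fold for 44 (93.3% of all genes). The exceptions were Diaph3, Hmmr and Cenph, with upper bounds of 0.59, 0.61 and 0.65 on the log2 scale. Fitted differences, always Dom/Dom minus wild type in log2 units, ran from -0.13 for Mycn to 0.31 for Diaph3. They were above 0 for 41 members and below 0 for 6, which is 87.2% above 0 against 49.6% of all genes. The median was 0.09 over the members and -0.0009 over all genes.

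**Figure D1:**
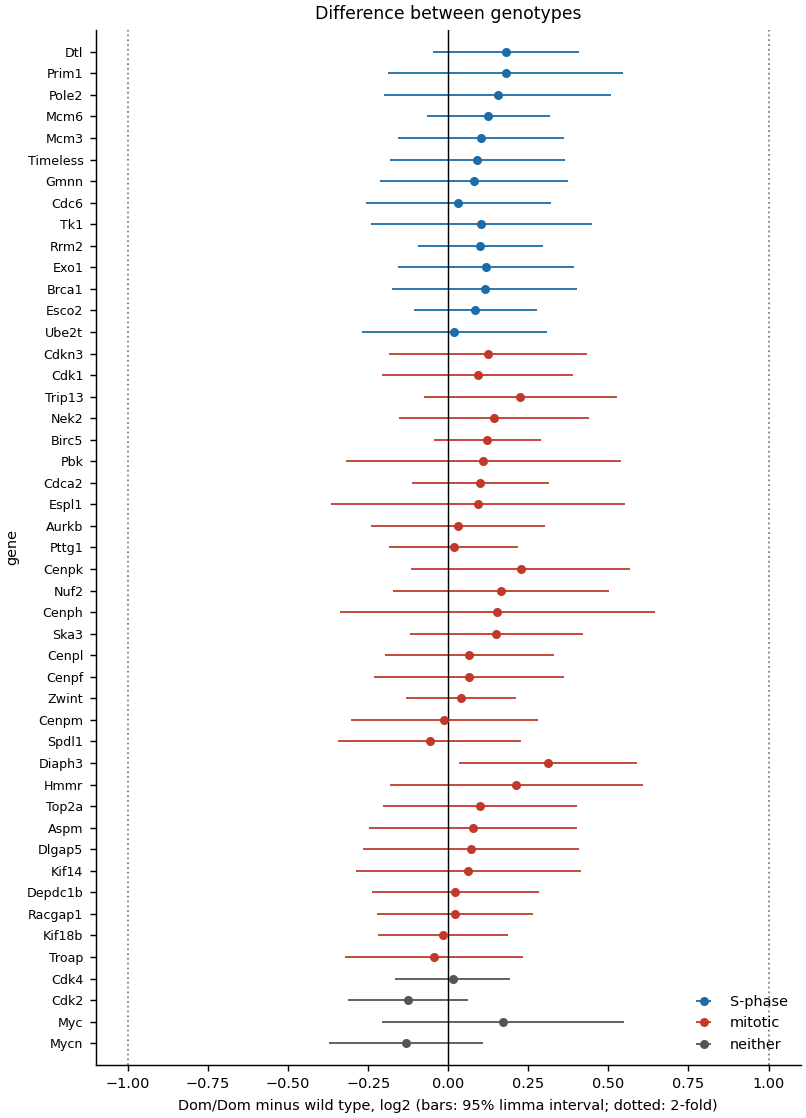
Fitted log2 difference, Dom/Dom minus wild type, of each of the 47 measured genes with its 95% limma interval, grouped by role (4 arrays per genotype). Most points lie slightly above 0, 41 of 47, and each interval ends within 2-fold.

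The size of that median varied with the arrays left out, while it stayed above 0 in each case. It was 0.17 without Dom/Dom replicate 1, 0.15 without wild-type replicate 2, 0.05 without wild-type replicate 1, 0.04 without wild-type replicate 3 and 0.03 without Dom/Dom replicate 2. It was 0.10, 0.08 and 0.07 without Dom/Dom replicate 3, wild-type replicate 4 and Dom/Dom replicate 4. Without both arrays of a replicate number it was 0.13, 0.09, 0.08 and 0.05 for numbers 1 to 4. The number of members above 0 stood between 32 (without Dom/Dom replicate 2) and 43. No test was made of the median, since the members share the same 8 arrays and were chosen with earlier results known.

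Genes of the replication origin and fork act first in the cycle and were represented by 8 members: the helicase subunits Mcm3 and Mcm6, the helicase loader Cdc6, the licensing inhibitor Gmnn, the ubiquitin ligase adaptor Dtl, the primase Prim1, the polymerase epsilon subunit Pole2 and the fork protection protein Timeless. All 8 had a fitted difference above 0, with a median of 0.11, and none passed the test (0 of 8 by limma). At an unadjusted p under 0.05, 0 of 8 were counted, against 6.11% of all genes. With the block 2 of 8 were, Dtl and Prim1 (25% against 13.9% of all genes). The 150 bases before the start sites of Mcm6 (chr1:128359706-128359855, minus strand) and Dtl (chr1:191575545-191575694, minus strand), from RefSeq on GRCm38.p6, are shown because both hold E2F words. Capitals mark E2F words (TTTCCCGC, TTTGGCGC, TTTCGCGC or TTTGCCGC) and CCAAT boxes (CCAAT) on either strand, and in Mcm6 a pair of E2F words on opposite strands overlaps.
Mcm6: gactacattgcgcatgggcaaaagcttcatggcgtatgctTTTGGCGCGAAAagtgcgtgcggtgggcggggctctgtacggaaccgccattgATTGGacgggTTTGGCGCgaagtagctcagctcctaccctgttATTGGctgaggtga
Dtl: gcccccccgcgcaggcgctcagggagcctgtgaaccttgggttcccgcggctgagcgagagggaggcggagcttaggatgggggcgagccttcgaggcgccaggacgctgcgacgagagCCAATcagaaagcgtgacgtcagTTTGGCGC

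Promoter windows ran from 250 bases before to 50 after the start. E2F words were found in those of 5 of 11 measured S-phase members with a window (45.5%: Cdc6, Dtl, Mcm3, Mcm6 and Pole2). They were found in 3.28% of 5277 tested genes with a window, in 2.26% of all 32851 windows, and in 3 of 24 mitotic members (12.5%: Cdk1, Cenpl and Cenpm). A match is a description of the letters and not a shown binding site.

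Mcm6 stood at 11.71, 11.86, 11.85 and 11.94 in Dom/Dom replicates 1 to 4 and at 11.73, 11.86, 11.60 and 11.65 in wild type. The wild-type arrays 3 and 4 were the lowest, while the other wild-type arrays lay among the Dom/Dom values, and the difference of 0.13 (95% interval -0.07 to 0.32) did not pass. Dtl, which marks the licensing factor Cdt1 for destruction, stood at 11.55, 11.71, 11.82 and 11.87 in Dom/Dom and at 11.37, 11.76, 11.56 and 11.54 in wild type. Its groups overlapped through wild-type replicate 2 and Dom/Dom replicate 1, and its difference was 0.18 (-0.05 to 0.41). Prim1, which makes the RNA primers of DNA synthesis, stood at 10.28, 10.82, 10.54 and 10.83 in Dom/Dom and at 10.15, 10.81, 10.25 and 10.56 in wild type. In both genotypes its lowest array was replicate 1, and Dom/Dom was the higher array of the same number in 4 of 4 pairs, by 0.13, 0.02, 0.30 and 0.27.

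Nucleotide supply was represented by Rrm2, a subunit of ribonucleotide reductase, and by the thymidine kinase Tk1. Rrm2 stood at 12.97, 13.10, 13.22 and 13.23 in Dom/Dom and at 12.89, 13.10, 13.09 and 13.04 in wild type. The groups overlapped, and the differences of Rrm2 and Tk1 were each 0.10. The members for S-phase repair and cohesion were Brca1, of homologous recombination, the exonuclease Exo1, the Fanconi pathway enzyme Ube2t and the cohesin acetyltransferase Esco2. Their differences lay between 0.02 (Ube2t) and 0.12 (Exo1), with a median of 0.10. Esco2 stood at 11.30, 11.34, 11.19 and 11.42 in Dom/Dom and at 11.33, 11.31, 11.07 and 11.21 in wild type, and its groups overlapped over most of their range.

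Among mitotic genes, Cdk1, the kinase that drives entry into mitosis, and Cdkn3, a phosphatase that acts on Cdk proteins, differed by 0.09 and 0.12. Promoter stretches of 150 bases before the start, from RefSeq on GRCm38.p6, are shown for Cdk1 (chr10:69352913-69353062, minus strand), Top2a (chr11:99024190-99024339, minus strand), Espl1 (chr15:102296143-102296292, plus strand), Hmmr (chr11:40733438-40733587, minus strand) and Diaph3 (chr14:87141225-87141374, minus strand). The first 3 hold the CHR word (TTTGAA) with CCAAT boxes, Hmmr has its CHR word 9 bases after the start and so outside the stretch, and Diaph3, the member with the largest difference, holds CCAAT boxes with no CHR or E2F word in its window. Capitals mark CHR, CCAAT and E2F words on either strand.
Cdk1: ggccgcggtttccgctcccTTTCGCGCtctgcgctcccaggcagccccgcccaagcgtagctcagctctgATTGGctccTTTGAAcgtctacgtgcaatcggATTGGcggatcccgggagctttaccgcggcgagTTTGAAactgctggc
Top2a: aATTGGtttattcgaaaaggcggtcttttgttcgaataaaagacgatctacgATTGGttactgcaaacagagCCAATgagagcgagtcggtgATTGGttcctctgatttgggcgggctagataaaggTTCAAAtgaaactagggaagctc
Espl1: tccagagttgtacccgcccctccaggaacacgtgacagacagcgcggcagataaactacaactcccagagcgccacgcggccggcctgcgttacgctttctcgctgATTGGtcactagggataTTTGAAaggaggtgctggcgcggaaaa
Hmmr: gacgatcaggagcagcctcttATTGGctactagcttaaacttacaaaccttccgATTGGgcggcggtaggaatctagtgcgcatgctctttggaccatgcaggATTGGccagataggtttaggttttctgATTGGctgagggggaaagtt
Diaph3: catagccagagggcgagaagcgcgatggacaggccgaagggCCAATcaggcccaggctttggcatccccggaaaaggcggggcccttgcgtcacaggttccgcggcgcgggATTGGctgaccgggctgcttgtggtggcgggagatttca

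The CHR word was found in the windows of 13 of 24 mitotic members (54.2%) and of 0 of 11 S-phase members, against 16.7% of tested genes and 17.9% of all windows. CCAAT was found in 19 of 24 mitotic members (79.2%) and 7 of 11 S-phase members (63.6%), against 40.7% of tested genes and 37.4% of all windows. Both words together were found in 12 of 24 mitotic members (50%) and 6.5% of tested genes. Matches of different motifs overlapped in 0 member windows. Of the 47 measured members, 38 had a window, and the member counts of words above cover only these. Among listed genes not measured, the S-phase gene Cdc45 held CHR and CCAAT words. The mitotic gene Ccnb1, also not measured, held CCAAT words and no CHR word. These shares describe which genes were listed, not a genotype effect.

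Cdk1 stood at 12.27, 12.59, 12.75 and 12.90 in Dom/Dom and at 12.33, 12.52, 12.58 and 12.71 in wild type. Replicate 1 was the lowest and replicate 4 the highest in both genotypes, the groups overlapped, and the interval of the difference was -0.21 to 0.39. Cdkn3 stood at 9.63, 10.21, 9.81 and 10.09 in Dom/Dom and at 9.65, 10.09, 9.69 and 9.82 in wild type. Its highest array was replicate 2 in both.

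**Figure D2:**
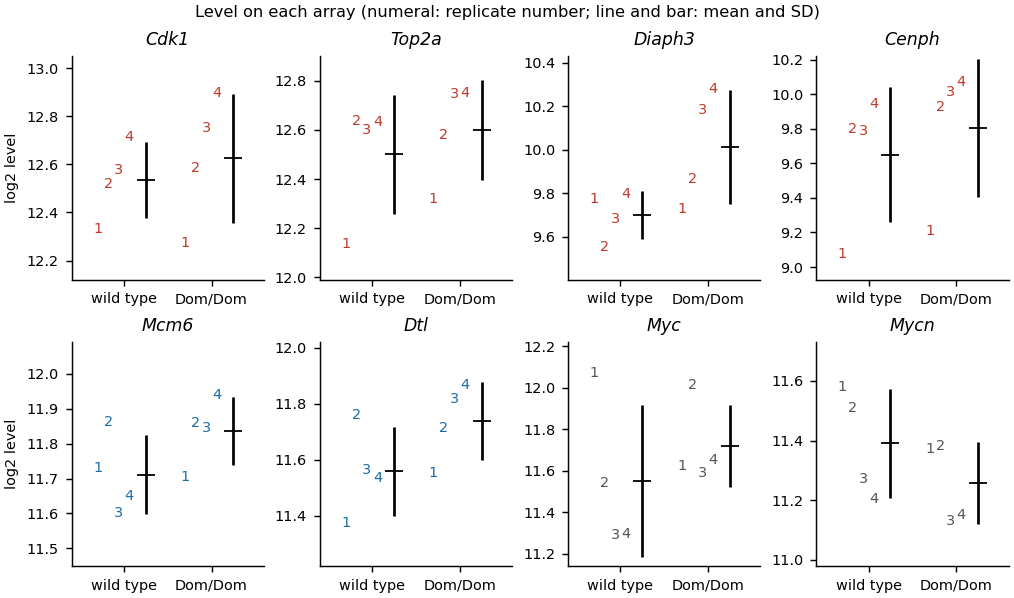
Log2 level of 8 members on each array, with the replicate number as the plotting symbol and the mean and SD of 4 arrays beside it. Same-numbered arrays of the 2 genotypes often sit at like heights, as for Cdk1 and Cenph, whose replicate 1 was lowest in both genotypes.

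The mitotic regulators were the chromosomal passenger proteins Aurkb and Birc5, the kinases Nek2 and Pbk, the phosphatase-targeting protein Cdca2, securin (Pttg1), separase (Espl1), which cuts cohesin at anaphase, and the checkpoint ATPase Trip13. All 8 differences were above 0, with a median of 0.10, and 0 of 8 passed (limma). At an unadjusted p under 0.05, 0 were counted (6.11% of all genes), and with the block 2, Nek2 and Trip13 (25% against 13.9% of all genes). Trip13 stood at 11.01, 11.46, 11.10 and 11.39 in Dom/Dom and at 11.08, 11.29, 10.76 and 10.94 in wild type. Wild-type replicate 3 was the lowest of its 8 arrays, and its difference was 0.23 (-0.08 to 0.53). Espl1 stood at 10.60, 11.06, 10.26 and 10.32 in Dom/Dom and at 10.68, 10.87, 10.12 and 10.19 in wild type. Its arrays of replicates 1 and 2 were higher than those of 3 and 4 in both genotypes, and its difference of 0.09 was small beside a spread within genotype of 0.37 (SD). Pbk stood at 10.24, 10.76, 10.19 and 10.50 in Dom/Dom and at 10.04, 10.89, 10.04 and 10.28 in wild type, with replicate 2 highest in both. Without Dom/Dom replicate 2 the difference was -0.07 for Espl1 and -0.0018 for Pbk, and it was -0.02 for Espl1 without wild-type replicate 3.

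The kinetochore, which joins chromosomes to the spindle, was represented by 9 members: Cenpf, Cenph, Cenpk, Cenpl and Cenpm, Nuf2 of the Ndc80 complex, Ska3 of the Ska complex, the dynein adaptor Spdl1 and Zwint. Of these, 7 had a difference above 0 and the median was 0.07. At an unadjusted p under 0.05, 0 were counted by limma, and with the block 2, Cenph and Cenpk (22.2% against 13.9% of all genes). Cenpk stood at 10.00, 10.53, 10.17 and 10.33 in Dom/Dom and at 9.97, 10.42, 9.72 and 10.01 in wild type. It was higher in Dom/Dom in 4 of 4 pairs, with a difference of 0.23 (-0.12 to 0.57), and wild-type replicate 3 was its lowest array. Cenph stood at 9.21, 9.93, 10.01 and 10.07 in Dom/Dom and at 9.08, 9.80, 9.78 and 9.95 in wild type. Both arrays of replicate 1 were far below the other 6, so the SD within genotype of Cenph was the largest of the members at 0.40, while the pairs differed by 0.13, 0.13, 0.23 and 0.12. Its difference of 0.15 became -0.04 without wild-type replicate 1.

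Spdl1 and Cenpm were the 2 kinetochore members with a difference below 0. Spdl1 stood at 7.73, 8.32, 7.95 and 7.85 in Dom/Dom and at 8.02, 8.21, 7.92 and 7.93 in wild type, a difference of -0.06. Cenpm stood at 10.65, 11.08, 10.60 and 10.52 in Dom/Dom and at 10.76, 10.94, 10.64 and 10.55 in wild type, a difference of -0.01 that turned to 0.02 when each array was centred on its median. Replicate 2 was the highest array in both genotypes for each of them, and neither sign was stable when single arrays were left out.

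The last mitotic role covered the spindle, chromosome structure and cytokinesis, with 10 members: the topoisomerase Top2a, the spindle proteins Hmmr, Aspm, Dlgap5 and Troap, the kinesins Kif14 and Kif18b, Racgap1 of the central spindle, the actin-nucleating formin Diaph3, and Depdc1b. Differences were above 0 for 8 of 10 (median 0.07). At an unadjusted p under 0.05, 1 was counted by limma, Diaph3 (10% against 6.11% of all genes). With the block 2 were, Diaph3 and Hmmr (20% against 13.9%). Diaph3 stood at 9.73, 9.86, 10.18 and 10.28 in Dom/Dom and at 9.78, 9.55, 9.68 and 9.80 in wild type. Dom/Dom replicates 3 and 4 were clearly the highest, whereas Dom/Dom replicate 1 lay within the wild-type values. Its difference was 0.31 with a standard error of 0.13, or 1.24-fold (95% interval 0.03 to 0.59), and did not pass after adjustment (limma adjusted p = 0.652; 0.212 with the block).

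Top2a, which untangles replicated chromosomes, stood at 12.32, 12.58, 12.75 and 12.75 in Dom/Dom and at 12.14, 12.63, 12.60 and 12.63 in wild type. Wild-type replicate 1 was the lowest array, and without it the difference went from 0.10 to -0.02. A second probe set of Top2a gave 0.06, but its mean over all arrays was only 6.57, against 12.55 for the first. It is thus a weak check of the difference. Hmmr stood at 10.30, 10.77, 11.08 and 11.09 in Dom/Dom and at 10.28, 10.58, 10.72 and 10.81 in wild type, a difference of 0.21 (-0.18 to 0.61). Both arrays of replicate 1 were its lowest, and Dom/Dom was higher in 4 of 4 pairs.

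Troap stood at 10.64, 10.76, 10.37 and 10.45 in Dom/Dom and at 10.80, 10.78, 10.45 and 10.36 in wild type. Kif18b, a kinesin of microtubule plus ends, stood at 11.83, 11.93, 11.77 and 11.86 in Dom/Dom and at 12.06, 11.91, 11.75 and 11.73 in wild type. For both genes the groups overlapped and wild-type replicate 1 was the highest array. Their differences were -0.04 and -0.02, and each was above 0 without that array (0.02 and 0.05).

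**Figure D3:**
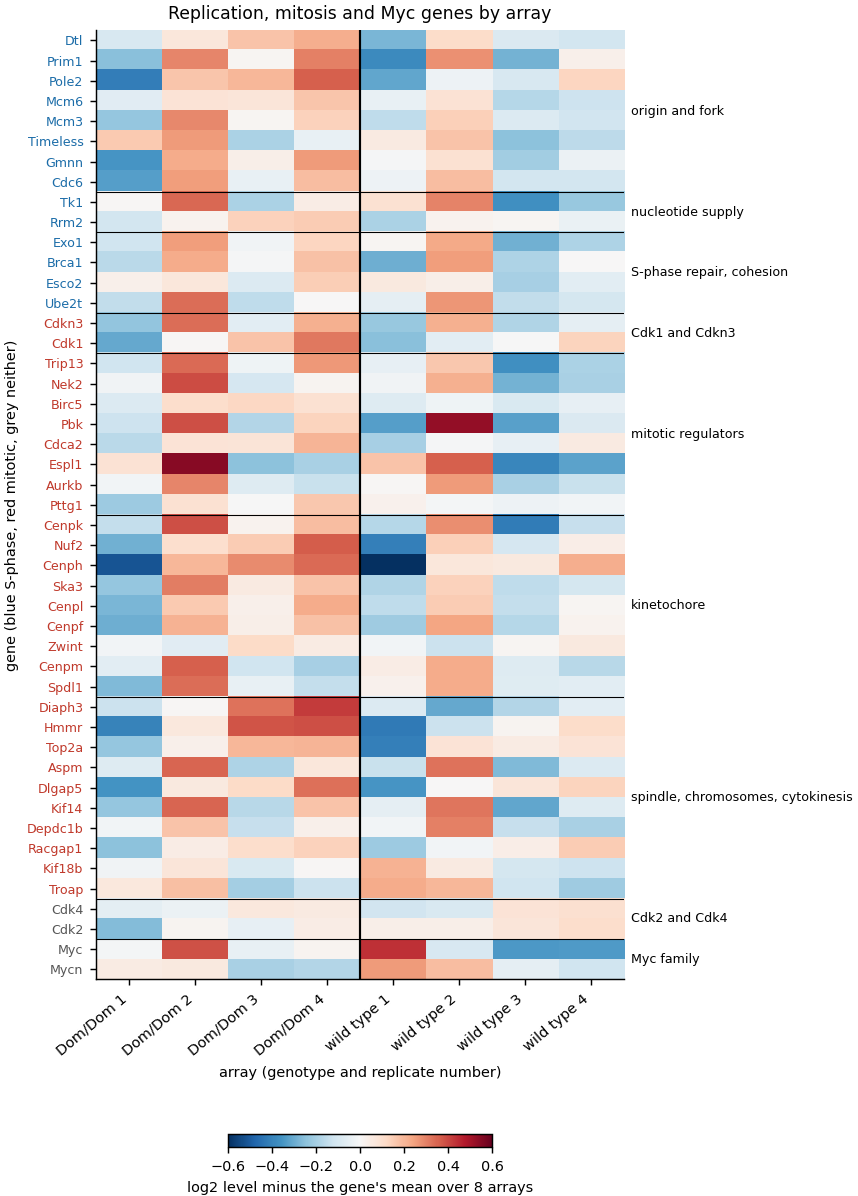
Log2 level of the 47 measured genes on each of the 8 arrays, minus the gene's mean over all 8, ordered by role, with gene names in blue for S-phase, red for mitotic and grey for neither. Replicate 1 is mostly low and replicate 2 mostly high in both genotypes. In wild-type replicate 1, 4 members were at their highest: Myc, Mycn, Kif18b and Troap.

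Cdk2 and Cdk4, kinases of G1 and the entry into S phase, and the Myc genes did not share a direction. Cdk2 stood at 11.37, 11.64, 11.58 and 11.67 in Dom/Dom and at 11.66, 11.66, 11.70 and 11.73 in wild type, and was lower in Dom/Dom in 4 of 4 pairs, with a difference of -0.13 (-0.31 to 0.06). Dom/Dom replicate 1 was the lowest array, and without it the difference was -0.06. Cdk4 differed by 0.01 (-0.17 to 0.19). Myc stood at 11.62, 12.01, 11.59 and 11.65 in Dom/Dom and at 12.07, 11.54, 11.29 and 11.30 in wild type. Its highest Dom/Dom array was replicate 2 and its highest wild-type array replicate 1, so the pairs differed by -0.45, 0.48, 0.30 and 0.36 around a fitted difference of 0.17 (-0.21 to 0.55). With arrays left out, singly or both of a number, that difference lay between 0.07 and 0.38. Mycn stood at 11.37, 11.38, 11.13 and 11.15 in Dom/Dom and at 11.58, 11.51, 11.27 and 11.20 in wild type. It was lower in Dom/Dom in 4 of 4 pairs, by -0.21, -0.13, -0.14 and -0.05, but the groups overlapped and the difference of -0.13 (-0.37 to 0.11) did not pass. With the block Mycn was counted at an unadjusted p under 0.05, 1 of 2 Myc genes (50% against 13.9% of all genes). Its interval was then -0.25 to -0.02 (limma adjusted p = 0.302 with the block). Mycn was the only member so counted with a difference below 0.

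By pairs of same-numbered arrays, 16, 36, 40 and 39 of 47 members were above 0 in pairs 1 to 4 (34%, 76.6%, 85.1% and 83%), against 46.8%, 56.5%, 46.2% and 50.1% of all genes. The members' medians were -0.03, 0.06, 0.14 and 0.19. Pair 1 thus ran against the other pairs. In 4 of 4 pairs 9 members were higher (19.1% against 10.4% of all genes), and 26 were higher in 3. Of the 6 measured neuronal markers, 5 were above 0 in pair 1 and 0 in each other pair, with medians of 0.37, -0.42, -0.62 and -0.49 in pairs 1 to 4, while Pou4f1 was below 0 in 4 of 4 pairs. The summed level of these markers was 13.44 to 14.13 in Dom/Dom and 13.64 to 14.22 in wild type, and their part in the members' pattern was not tested.

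The S-phase and mitotic genes had close medians. The median fitted difference was 0.10 over the 14 S-phase members, all above 0, and 0.09 over the 29 mitotic members, of which 25 were above 0. By pairs the S-phase medians were -0.05, 0.04, 0.18 and 0.26 and the mitotic medians -0.02, 0.07, 0.14 and 0.18. S-phase minus mitotic was thus -0.03, -0.03, 0.03 and 0.08, with an SD of 0.05 over the pairs, against 0.01 in the fit, so the classes differed by less than the spread between pairs. Leaving out single arrays moved it between -0.02 and 0.05.

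**Figure D4:**
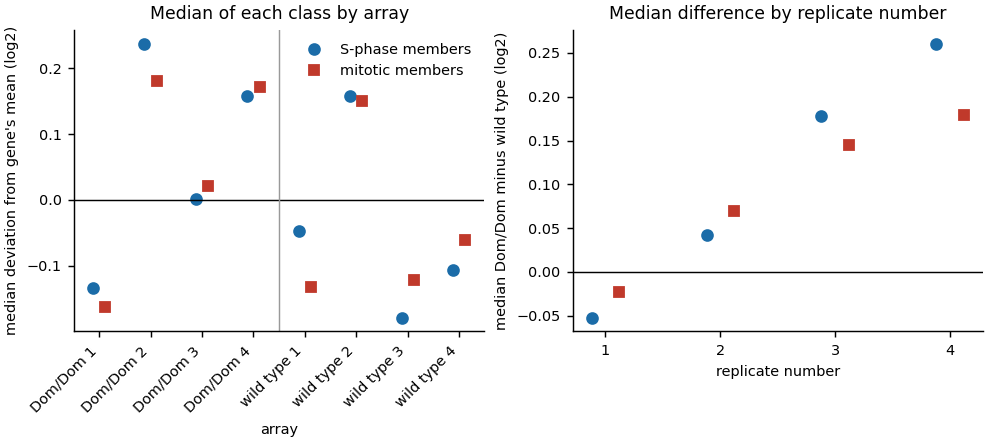
Median log2 deviation of S-phase and mitotic genes by array, and their median Dom/Dom minus wild-type difference by pair of same-numbered arrays. Deviations were measured from each gene's mean over all arrays of both genotypes, so they include the difference between genotypes. Both classes follow each other closely across arrays, and pair 1 lies below 0 for both.

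Within genotype the members varied more than the typical gene. Their median SD was 0.21, against 0.15 over all genes, and it ran from 0.07 for Birc5 to 0.40 for Cenph. Deviations were taken from each gene's mean over all arrays of both genotypes, so they include the difference between genotypes. The members' median deviation was -0.14, 0.20, -0.001 and 0.15 on Dom/Dom replicates 1 to 4. On wild type it was -0.08, 0.14, -0.14 and -0.06. Replicate 2 was highest in both genotypes for 21 members (44.7% against 14.2% of all genes), and replicate 1 was lowest in both for 19 (40.4% against 15.6%). Replicate 1 was highest in both for 0 members, against 19.0% of all genes. Blocking on the number brought the median standard error of a member from 0.13 to 0.06, and that of all genes from 0.10 to 0.06.

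The members did not all follow the same order of arrays. Cdk1, Cdca2, Cenph, Hmmr, Dlgap5, Racgap1 and Pole2 were lowest in replicate 1 and highest in replicate 4 in both genotypes. Timeless, Tk1, Ube2t, Nek2, Espl1 and Aspm were lowest in replicate 3 and highest in replicate 2 in both. Mcm3, Brca1, Cdkn3, Cenpf and Ska3 were lowest in replicate 1 and highest in replicate 2 in both. These groupings were read from the values and have no test. S-phase minus mitotic deviation was above 0 on the 4 arrays of replicates 1 and 2 and below 0 on the 4 arrays of replicates 3 and 4. On replicates 1 to 4 it was 0.03, 0.06, -0.02 and -0.01 in Dom/Dom and 0.09, 0.008, -0.06 and -0.05 in wild type. Several of these values were close to 0, and the split was not tested.

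A wider list held 245 other cell cycle genes, of which 52 were measured, and these 52 gave a like picture. They lay on chromosomes 1 and 10 to 16, apart from Rpa3 on chromosome 6 and Slbp on chromosome 5. Genes of the list without a single-symbol probe set in the values used could not be judged. None passed (0 of 52 by limma, with or without the block). At an unadjusted p under 0.05, 2 were counted (3.85% against 6.11% of all genes), and with the block 9 (17.3% against 13.9%). With array weights 1, Gtse1, passed (limma adjusted p = 0.0411), where 190 of all 6855 genes did. Of the 52, 38 were above 0 (73.1% against 49.6% of all genes), with a median of 0.06. By list these were 12 of 13 replication genes (median 0.11), 14 of 21 mitosis genes (0.04) and 12 of 18 genes of G1 control (0.06). Gtse1, a microtubule-binding protein of G2 and mitosis, stood at 11.33, 11.23, 11.18 and 11.15 in Dom/Dom and at 11.14, 10.76, 10.86 and 10.79 in wild type. Its groups did not overlap, with a difference of 0.33 (limma adjusted p = 0.291). The next largest positive differences were 0.27 for the kinetochore gene Cenpw and 0.22 for the E2F repressor E2f7, and the largest negative ones -0.20 for the antiproliferative gene Btg1 and -0.07 each for Tob1, of the same family, and the retinoblastoma gene Rb1.

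Markers of other cell types were read beside these values. A listed marker was measured only if it had a single-symbol probe set in the values used, whatever its expression. Of the listed markers, 0 of 12 for neural tube, 6 of 14 for neurons, 7 of 14 for somite and lateral mesoderm, 4 of 13 for blood, 1 of 9 for endothelium and 8 of 12 for epithelium were measured. None of these passed without the block (0 by limma, against 0.481% of all genes). At an unadjusted p under 0.05, 2 of 6 neuronal, 1 of 7 mesodermal and 3 of 8 epithelial markers were counted, against 6.11% of all genes. With the block 1 neuronal, 1 mesodermal and 1 epithelial marker passed, against 1.5% of all genes. Differences were below 0 for 6 of 6 neuronal markers (median -0.26) and 7 of 8 epithelial markers (median -0.15), and above 0 for 4 of 7 mesodermal markers (median 0.08). Summed mesodermal levels were 12.13 to 12.50 in Dom/Dom and 11.75 to 12.39 in wild type. Those of epithelium were 13.37 to 13.67 and 13.47 to 14.05, and those of blood 11.46 to 12.98 and 12.06 to 13.63. Pecam1, the endothelial marker, was at 8.05 to 8.31 and 8.01 to 8.36. The part of these cells in the members' values was not tested.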

How the data were processed

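The authors deposited log2 expression values per probe set and array from Mouse Gene 1.0 ST arrays, labelled from 250 ng of total RNA per the labels' protocols. The submitters' processing notes list Partek and RMA (robust multi-array average), whose versions and options are not given in the sources used here. Robust multi-array averaging summarises probes after normalising arrays and compresses differences of dim probe sets. Of 16381 probe sets in the table, the platform annotation gave 7416 a single symbol (1 gene), 509 more than that, and 8456 no symbol. The brightest single-symbol probe set stood for each of 6855 genes, of which 6829 matched a RefSeq table of GRCm38.p6 by gene identifier. All genes means these 6855 throughout, not the whole genome.

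A two-sided limma fit (version 3.58.1, R 4.3.3, lmFit with eBayes) had genotype as its term, and p-values were adjusted by Benjamini-Hochberg across all 6855 genes at a threshold of 0.05. The members and lists were chosen with earlier results of these data known. Values on each array were given for Cdk1, Top2a, Mcm6, Myc and Mycn, for any member past the threshold, for the 6 largest differences in each direction, for the largest moderated t in each role and for the 4 largest SDs within genotype. The 3 largest differences in each direction were named from the wider list. Same-numbered arrays deviated together (correlations of 0.47, 0.58, 0.61 and 0.67, all over 0.1), and the numbers were therefore treated as pairs, a reading of the data and of no label. Arrays numbered 1 and 2 across genotypes (0.11 and 0.14), and 3 and 4 (0.21 and 0.38), were also over 0.1, so passing this limit is not particular to equal numbers. On data simulated for the genotype comparison over 6855 genes, 97% of 100 genes changed by 1 log2 unit and 100% of 100 changed by 2 were recovered. The simulated noise was independent between arrays and no smaller change was simulated. Recovery of differences as small as those of the members, at most 0.31, was therefore not tested. The number of arrays limits the precision. Promoter windows were RefSeq's on GRCm38.p6, and sequences were searched on both strands. Alternatives covered the block, scaling, choice of probe set, a filter on dim genes, the variance prior, array weights and left-out arrays.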

Additional observations from a re-analysis of the deposited data

Results flagged for a closer look

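The search covered 48 sets of 4 arrays: the named genes and the medians of the S-phase and mitotic genes, by genotype. In 3 sets a value lay far from the other 3 by Dixon's criterion. Independent sets not picked for their values would give about 2.4 by chance (1 in 20). These genes were picked partly for a large SD or difference and share the same 8 arrays, so that number is a rough guide. Top2a was low on wild-type replicate 1, at 12.14 against 12.60 to 12.63 on the other wild-type arrays. Myc was high on Dom/Dom replicate 2, at 12.01 against 11.59 to 11.65. Cenph was low on Dom/Dom replicate 1, at 9.21 against 9.93 to 10.07, and the wild-type array of the same number was its lowest too.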

How the results depend on the processing

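No member passed the adjusted threshold under any of the 7 alternatives that kept all arrays or the 12 that left arrays out; the lowest adjusted p was 0.0698, with array weights. The ranges below include leaving out both arrays of a replicate number, an alternative chosen after seeing the data. Over all genes, 33 calls became 103 with the replicate block and 190 with array weights (54 higher and 136 lower, against 5 and 28), and 4 to 75 when arrays were left out; the cause was not tested. The wider list went from 0 calls to 1 with array weights. The replicate block changed no call of a member. The members' median was 0.13 with arrays centred on their medians, where that of all genes was 0.03. Of 417 values of the 22 named members, 393 kept their direction and 24, in 8 members, reversed. Cenpm, below 0 in the fit, was 0.0225 with centred arrays, 0.0014 after quantile normalization and 0.0025 with array weights, and Kif18b was 0.0189 and 0.033 with centred arrays and array weights. With arrays left out, differences ran from -0.0379 to 0.352 for Cenph, -0.135 to 0.0596 for Cenpm, -0.0736 to 0.227 for Espl1, -0.0665 to 0.0547 for Kif18b, -0.0018 to 0.303 for Pbk, -0.179 to 0.0207 for Spdl1, -0.0215 to 0.193 for Top2a and -0.123 to 0.0216 for Troap. With 4 arrays a genotype and no detection calls, differences below about the width of the intervals were not detectable.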

Other observations

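Differences were also set beside the promoter words, as a description. The median difference was 0.08 for the 13 mitotic members with a CHR word and 0.14 for the 11 without, and 0.13 for the 5 S-phase members with an E2F word and 0.10 for the 6 without. The median SD within genotype was 0.22 for mitotic members with a CHR word and 0.21 for those without. Mycn was the 1 member outside both classes with a CHR word in its window.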
